A study of Mus musculus with 9 samples.

Results

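The RNA of 7 genes of B cells and antibody-secreting plasma cells, *Jchain*, *Cd79a*, *Cd79b*, *Ms4a1*, *Pou2af1*, *Tnfrsf17* and *Mzb1*, was measured in mouse liver with Affymetrix Mouse Gene 1.0 ST arrays. The genes were chosen by name with earlier results of these data known, so shares of all probe sets given beside their counts are a description only. Each was matched to the probe sets whose only gene symbol in the array annotation is that name, which gave 7 probe sets of the 28815 on the array. The 9 arrays held 1 mouse each, with 3 arrays in each of 3 groups. The WTCR group were wild-type mice on a short-term calorie restricted diet, given in daily amounts that were lowered in steps. The Dgat1-/-AL group were mice null for *Dgat1* throughout the body, fed ad libitum, so that a difference in their liver need not start there. The WTAL group were wild-type littermates fed ad libitum. All were females on a C57BL/6J background, 15 to 16 months old, and the groups fed ad libitum ate standard chow. The study set both lean groups against WTAL to ask whether calorie restriction and the loss of the triglyceride synthesis enzyme DGAT1 act through shared pathways.

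B cells carry a membrane antibody that recognises antigen and is coupled to the signalling pair CD79A and CD79B. After activation some of them become plasma cells, which lose most surface receptors, enlarge the endoplasmic reticulum and secrete antibody. Liver holds few of either cell next to hepatocytes, and these cells lie in the sinusoids, around portal tracts and in lymphoid aggregates that can form with age. Whole liver was measured, so fewer cells of a type and less RNA per cell cannot be told apart in any value given here.

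Promoters of 4 of the 7 genes were looked up in RefSeq (GRCm38.p6), and the 250 bases before the start of 3 of them are shown because *Jchain* and *Cd79a* were among the genes that fell and *Pou2af1* held the rarest of the motifs searched. Capitals mark a match to a searched motif. *Jchain* is read from chr5:88527898-88528147 on the minus strand, *Cd79a* from chr7:24897247-24897496 on the plus strand and *Pou2af1* from chr9:51213440-51213689 on the plus strand.
Jchain: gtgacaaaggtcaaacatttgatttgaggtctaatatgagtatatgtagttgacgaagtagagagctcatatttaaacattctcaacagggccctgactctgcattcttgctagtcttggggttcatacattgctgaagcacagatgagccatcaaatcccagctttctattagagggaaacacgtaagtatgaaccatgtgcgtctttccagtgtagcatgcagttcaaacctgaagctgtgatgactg
Cd79a: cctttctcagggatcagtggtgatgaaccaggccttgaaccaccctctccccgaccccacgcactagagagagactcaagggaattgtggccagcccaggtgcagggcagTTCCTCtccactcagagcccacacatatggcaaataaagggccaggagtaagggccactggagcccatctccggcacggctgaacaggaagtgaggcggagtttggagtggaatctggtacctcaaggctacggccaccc
Pou2af1: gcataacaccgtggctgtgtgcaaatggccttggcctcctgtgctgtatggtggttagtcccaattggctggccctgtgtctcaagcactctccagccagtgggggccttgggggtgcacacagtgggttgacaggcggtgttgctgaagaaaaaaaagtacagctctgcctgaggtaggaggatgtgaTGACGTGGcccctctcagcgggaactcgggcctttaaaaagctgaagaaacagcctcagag
Exact matches were counted on both strands in windows of 250 bases before and 50 bases after the start. The octamer ATGCAAAT, the site of the OCT factors that the *Pou2af1* product binds, was in 0 of the 4 windows and in 1.74% of all 32851 windows. The EBF1 motif CCCNNGGG, which reads the same on both strands, was in 0 of the 4 and in 13.7% of all. The PU.1 core GAGGAA was in 28.3% of all windows and in 3 of the 4. In *Cd79a* it began 140 bases before the start on the minus strand, so that the printed strand holds its reverse complement. It began 120 bases before the start used for *Tnfrsf17*, on the minus strand, and in *Pou2af1* after the start. The 250 bases before that *Tnfrsf17* start (chr16:11313559-11313808) lie inside the gene's span (chr16:11313232-11320074), so its start there is not the first base of the span. The unfolded protein response element TGACGTGG was in 0.676% of all windows and in 1 of the 4, at 61 bases before the start of *Pou2af1*. A match describes letters only and shows neither binding nor a cause.

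Of the 7 genes, *Jchain*, *Cd79a*, *Cd79b* and *Ms4a1* were 1.36-fold to 5.01-fold lower in WTCR livers than in those of WTAL mice, and 0 were higher. A gene was called at a fold over 1.3 and an unadjusted limma p under 0.05. By this rule 3.81% of all probe sets were lower and 4.25% higher. The study states the same thresholds, for a t-test p obtained with limma. With an ordinary t-test on the 2 groups (the methods' t-test below), 3 of the 7 were lower in WTCR, as were 849 of all 28815 probe sets. At an adjusted p under 0.05 the calls were *Jchain* and *Cd79b*, and 1.41% of all probe sets were lower at that threshold. In 4 of the 7 genes every WTCR array lay below every WTAL array, as in 8.44% of all probe sets. The median log2 fold change of the 7 was -0.44, against 0.00233 over all probe sets.

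In Dgat1-/-AL livers *Jchain* alone was called, 2.86-fold lower than in WTAL, where 0.760% of all probe sets were lower and 0.465% higher. With the ordinary t-test 0 of the 7 were called there, and 113 of all 28815 probe sets were lower. At an adjusted p under 0.05 in limma, 0% of all probe sets were lower in that comparison (1316 probe sets had an unadjusted p under 0.05 in either direction), and the adjusted p of each of the 7 genes was 0.97. In 3 of the 7, *Jchain*, *Cd79b* and *Pou2af1*, every Dgat1-/-AL array lay below every WTAL array, as in 3.86% of all probe sets, and the same 3 had an unadjusted limma p under 0.05. For *Pou2af1* the gap was narrow, with the highest Dgat1-/-AL array at 5.788 and the lowest WTAL array at 5.801. The median log2 fold change of the 7 was -0.28, against -0.00233 over all probe sets. Both comparisons subtract the same 3 WTAL arrays, so their values for a gene are not independent.

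**Figure D1:**
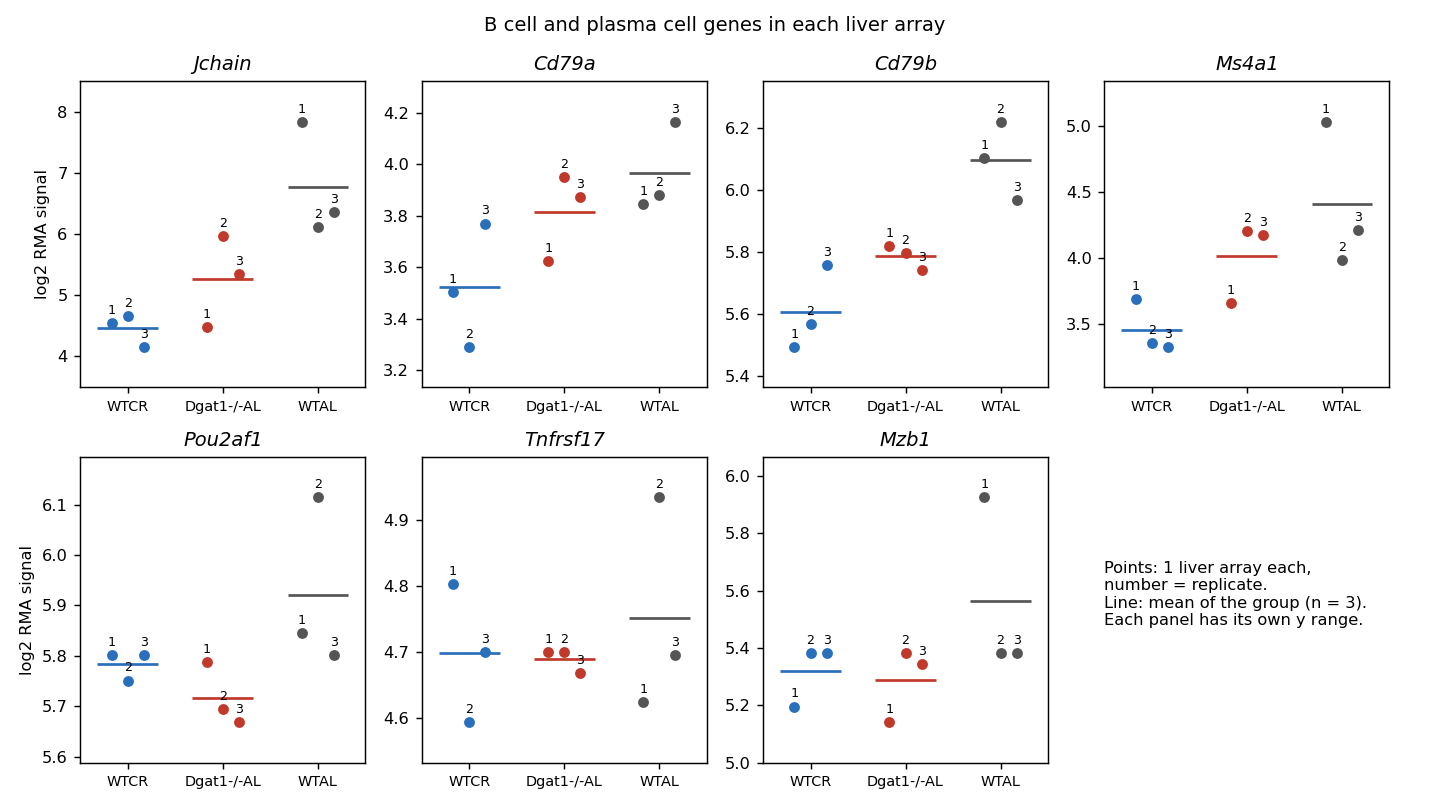
Log2 signal after RMA (y axis, a range of its own in each panel) of the 7 genes, with the 3 groups along the x axis. Each point is 1 of the 9 arrays and carries its replicate number, and a line marks the mean of 3 arrays. The WTCR points of *Jchain*, *Cd79a*, *Cd79b* and *Ms4a1* all lie below the WTAL points, while *Tnfrsf17* and *Mzb1* overlap in every pair of groups.

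*Jchain* (chr5:88519809-88527897 on GRCm38.p6) encodes the short chain that links IgM and IgA units into secreted polymers. Its log2 signal was 4.54, 4.66 and 4.15 in WTCR, 4.47, 5.97 and 5.34 in Dgat1-/-AL, and 7.85, 6.11 and 6.37 in WTAL arrays. The 3 WTAL arrays were the 3 highest of the 9, with replicate 1 well above the others, and Dgat1-/-AL replicate 1 sat among the WTCR arrays. The log2 fold change was -2.33 ± 0.49 in WTCR (SE, limma with 3 mice in a group, adjusted p = 0.042) and -1.51 ± 0.49 in Dgat1-/-AL (adjusted p = 0.97). Both calls held in all 9 fits that left out 1 array, with values from -2.66 to -1.79 in WTCR and from -1.87 to -0.98 in Dgat1-/-AL.

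*Cd79b* (chr11:106311341-106314562) encodes Ig-beta, one of the signalling chains of the B cell receptor. Its signal was 5.49, 5.57 and 5.76 in WTCR, 5.82, 5.80 and 5.74 in Dgat1-/-AL, and 6.11, 6.22 and 5.97 in WTAL arrays. The WTAL arrays again held the 3 highest values, and the spread within each group was small beside the distance between WTCR and WTAL. The change was -0.49 ± 0.09 in WTCR, 1.41-fold lower (SE, adjusted p = 0.027 from limma), and the call held in each fit that left out 1 array (-0.57 to -0.43). In Dgat1-/-AL livers it was -0.31 ± 0.09, a fold of 1.24 that lies under the threshold of the rule.

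*Cd79a* (chr7:24897497-24901858) encodes Ig-alpha, the partner of Ig-beta. Its signal was 3.50, 3.29 and 3.77 in WTCR, 3.63, 3.95 and 3.87 in Dgat1-/-AL, and 3.85, 3.88 and 4.17 in WTAL arrays. WTCR replicate 3 came within a short distance of WTAL replicate 1, and the Dgat1-/-AL arrays overlapped both groups. The change was -0.44 ± 0.14 in WTCR (SE, adjusted p = 0.17 from limma) and -0.15 ± 0.14 in Dgat1-/-AL (95% interval -0.48 to 0.18). In WTCR it was no longer called once WTCR replicate 2 (-0.33) or WTAL replicate 3 (-0.34) was left out.

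*Ms4a1* (chr19:11249679-11266149) encodes CD20, a membrane protein of mature B cells that plasma cells lack. Its signal was 3.69, 3.36 and 3.33 in WTCR, 3.66, 4.21 and 4.18 in Dgat1-/-AL, and 5.04, 3.98 and 4.22 in WTAL arrays. As with *Jchain*, WTAL replicate 1 was the highest array and Dgat1-/-AL replicate 1 lay within the WTCR range. The change was -0.95 ± 0.27 in WTCR, 1.94-fold lower (SE, adjusted p = 0.11 from limma), and the call held in each fit that left out 1 array (-1.17 to -0.64). In Dgat1-/-AL livers the change was -0.40 ± 0.27 (95% interval -1.002 to 0.21) and was not called. It moved to -0.09 without WTAL replicate 1.

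*Pou2af1* (chr9:51213690-51240079) encodes OBF-1, a coactivator that OCT factors recruit to antibody gene promoters. Its signal was 5.80, 5.75 and 5.80 in WTCR, 5.79, 5.69 and 5.67 in Dgat1-/-AL, and 5.85, 6.12 and 5.80 in WTAL arrays. The array labelled WTAL replicate 2 was the highest and stood apart from the other 8. The change was -0.14 ± 0.09 in WTCR (95% interval -0.34 to 0.06) and -0.20 ± 0.09 in Dgat1-/-AL (95% interval -0.40 to -0.004), both under a fold of 1.3, and without that array it was -0.04 in WTCR and -0.11 in Dgat1-/-AL.

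*Tnfrsf17* (chr16:11313232-11320074) encodes BCMA, a receptor through which the ligands BAFF and APRIL keep plasma cells alive. Its signal was 4.80, 4.59 and 4.70 in WTCR, 4.70, 4.70 and 4.67 in Dgat1-/-AL, and 4.62, 4.94 and 4.70 in WTAL arrays. The groups overlapped throughout. The change was -0.05 ± 0.09 in WTCR (95% interval -0.26 to 0.16) and -0.06 ± 0.09 in Dgat1-/-AL (95% interval -0.27 to 0.15), and its sign turned without the array labelled WTAL replicate 2 (0.04 in WTCR and 0.03 in Dgat1-/-AL).

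*Mzb1* (chr18:35647265-35650266) encodes a protein of the endoplasmic reticulum that assists antibody assembly and secretion. Its signal was 5.20, 5.38 and 5.38 in WTCR, 5.14, 5.38 and 5.34 in Dgat1-/-AL, and 5.93, 5.38 and 5.38 in WTAL arrays. WTAL replicate 1 stood above the rest, and 5 arrays held the same value. The change was -0.24 ± 0.15 in WTCR (95% interval -0.58 to 0.10) and -0.28 ± 0.15 in Dgat1-/-AL (95% interval -0.61 to 0.06), and without WTAL replicate 1 it was -0.06 in WTCR and -0.09 in Dgat1-/-AL. A value shared by 3 or more arrays also occurred in *Pou2af1* and *Tnfrsf17*, and in 37.0% of all probe sets.

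**Figure D2:**
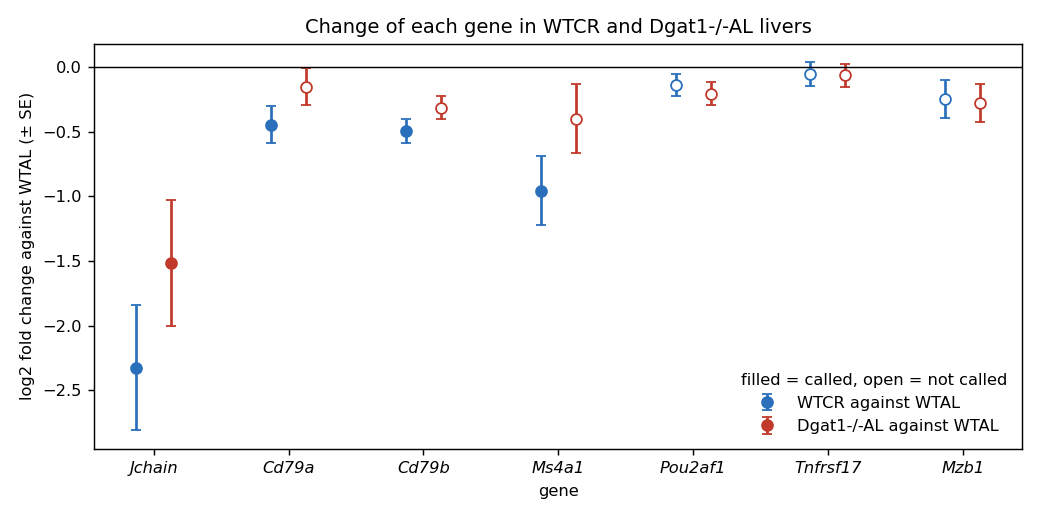
Log2 fold change against WTAL (y axis, ± SE) of each of the 7 genes (x axis) in WTCR and Dgat1-/-AL livers, with filled points for called genes and open points for the others. All 7 values lie below 0 in both comparisons, from -2.33 for *Jchain* to -0.05 for *Tnfrsf17* in WTCR.

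Set directly against each other, WTCR and Dgat1-/-AL livers differed by the rule in 0 of the 7 genes. Of all 28815 probe sets, 1131 (3.93%) were lower in WTCR and 1344 were higher. Every WTCR array lay below every Dgat1-/-AL array in 0 of the 7, against 7.10% of all probe sets. The differences were -0.81 ± 0.49 for *Jchain* (95% interval -1.92 to 0.30), -0.56 ± 0.27 for *Ms4a1* (-1.16 to 0.05), -0.30 ± 0.14 for *Cd79a* (-0.62 to 0.03) and -0.18 ± 0.09 for *Cd79b* (-0.39 to 0.02). The other 3 were 0.07 for *Pou2af1*, 0.03 for *Mzb1* and 0.01 for *Tnfrsf17*. Each of the 4 intervals includes 0. Same-numbered arrays of these groups deviated together, though replicates 2 and 3 were hardly told apart and the labels state no pairing. A setting chosen after seeing the data took the replicate number as a block, with these 6 arrays alone in the fit. There *Jchain* (adjusted p = 0.27 from limma) and *Ms4a1* (adjusted p = 0.27) were called lower in WTCR. Dgat1-/-AL replicate 1 stands apart from the other arrays on the second principal component of all probe sets (42.1, against -15.3 to 15.9). Without it *Jchain* (-1.21), *Ms4a1* (-0.74) and *Cd79a* (-0.39) were called, and *Cd79a* was also called without WTCR replicate 3 (-0.42). Leaving out other arrays moved the differences toward 0, to -0.455 for *Jchain* without Dgat1-/-AL replicate 2 and to -0.18 for *Cd79a* without WTCR replicate 2, and neither was called there. Without WTAL replicate 1, which is in neither group but adds to the estimate of the spread, *Jchain* and *Ms4a1* were called at unchanged differences.

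**Figure D3:**
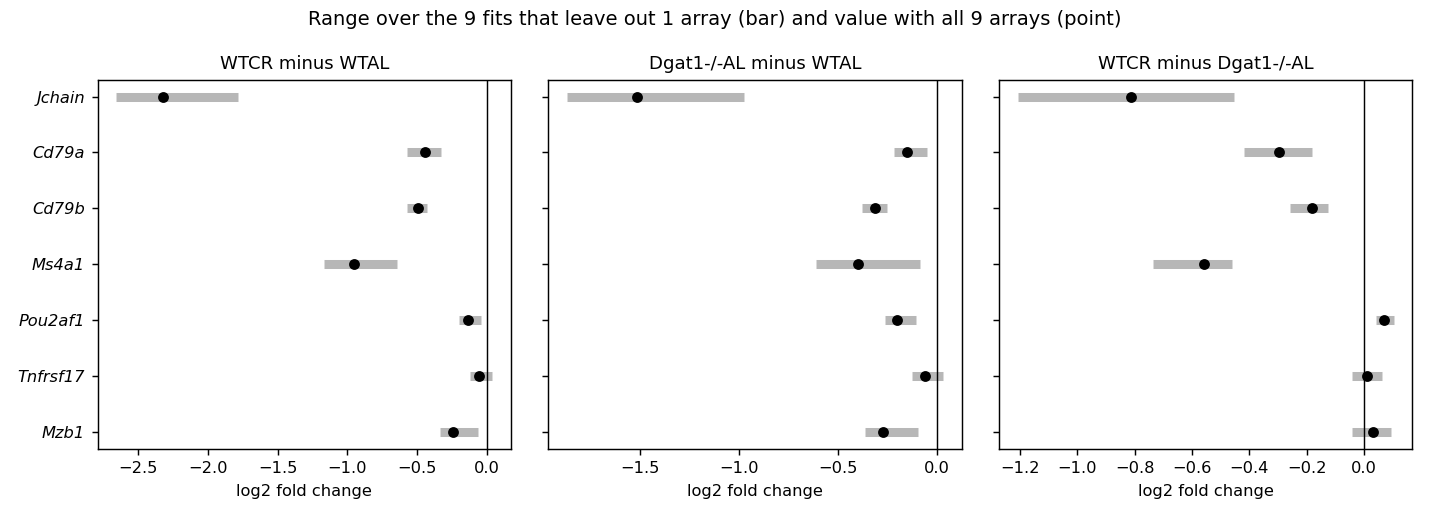
Log2 fold change of the 7 genes (rows) in 3 comparisons (panels, x axes of their own), with the value from all 9 arrays as a point and the range over the 9 fits that left out 1 array each as a bar. The bars of *Jchain*, *Cd79a*, *Cd79b* and *Ms4a1* stay below 0 in every panel, whereas those of *Tnfrsf17* cross 0 in each.

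The 7 genes did not vary as one. Over the 9 arrays, which share group differences and normalization, the 21 pairs had a median Pearson r of 0.52 (-0.34 to 0.94), given as a description. *Jchain* followed *Ms4a1* most closely (0.94) and also *Mzb1* (0.81), and *Pou2af1* followed *Tnfrsf17* (0.76). Once the group means were taken out, the median over the pairs was -0.03, with *Jchain* and *Ms4a1* still at 0.92. WTAL replicate 1 was the highest array for *Jchain*, *Ms4a1* and *Mzb1*, and the array labelled WTAL replicate 2 for *Cd79b*, *Pou2af1* and *Tnfrsf17*. The genes whose pattern was most like the mean of the 7 after scaling were *Hmcn1* (0.951), *Cstf3* (0.943), *Coro1a* (0.940), *Zfp566* (0.940), *G0s2* (0.935) and *Saysd1* (0.933), by Pearson r over 9 arrays. *Coro1a*, an actin regulator of blood cells, is the leukocyte gene among them.

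Some antibody genes were lower as well. Of 15 probe sets of 11 immunoglobulin genes with a symbol of their own, 3 were called lower in WTCR and 0 higher, and the median log2 fold change was -0.27. *Igha*, the heavy chain constant region of IgA, has 2 probe sets, and both were called in WTCR (-0.80 ± 0.26 and -0.65 ± 0.20, SE) and in Dgat1-/-AL (-0.65 ± 0.26 and -0.63 ± 0.20). The first WTCR call ended without WTCR replicate 3 or WTAL replicate 3. The first Dgat1-/-AL call ended without Dgat1-/-AL replicate 1 or 3 or without WTAL replicate 3 or the array labelled WTAL replicate 2 (-0.89 to -0.37 over the 9 fits), and the second without Dgat1-/-AL replicate 3 or WTAL replicate 3. *Ighm*, the constant region of IgM, was called in WTCR at 1 of its 3 probe sets (-0.40, a call that ended without WTAL replicate 1), while the others gave 0.12 and -0.04. A kappa chain variable segment was called in Dgat1-/-AL (-0.55, a call that also ended without WTAL replicate 1), where 3 of the 15 probe sets were lower, 0 higher and the median was -0.18. Antibody genes are close copies of each other, so a probe set named for one may read several.

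A further 14 probe sets carry several immunoglobulin symbols and are counted here without names. In WTCR 11 of the 14 were lower, 5 of them at an adjusted p under 0.05, with a median of -0.80 (-1.09 to -0.16). In Dgat1-/-AL 5 of the 14 were lower, 0 of them at that threshold, with a median of -0.42 (-0.74 to -0.12). All 14 values were below 0 in both comparisons. Over the fits that left out 1 array, 9 to 12 were lower in WTCR and 5 to 6 in Dgat1-/-AL.

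Of the other B cell genes, 26 of 29 were measured, and of these 2 were lower in WTCR, 0 were higher and 23 had values below 0, with a median of -0.12. *Bank1*, an adaptor of B cell receptor signalling, was 1.94-fold lower. Its signal was 5.26, 4.74 and 5.15 in WTCR, 5.53, 5.88 and 5.99 in Dgat1-/-AL, and 6.05, 6.04 and 5.93 in WTAL arrays, so that the WTCR arrays lay below the other 6. The change was -0.95 ± 0.15 in WTCR (SE, adjusted p = 0.019 from limma) and -0.20 ± 0.15 in Dgat1-/-AL. *Cd24a*, a surface protein of immature B cells that other cells also carry, was 1.55-fold lower (-0.63 ± 0.17, adjusted p = 0.10 from limma). The B lineage transcription factor *Pax5* (-0.14) and *Cd22*, an inhibitory coreceptor (-0.09), were not called and were chosen for mention after their values were seen. In Dgat1-/-AL 0 of the 26 were called, with a median of -0.07.

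Of 16 plasma cell genes, 2 were lower in WTCR and 0 higher, with a median of -0.05, and 0 were called in Dgat1-/-AL, with a median of 0.02. *Sdc1*, the proteoglycan syndecan-1 that marks plasma cells and that hepatocytes also make, was 1.47-fold lower in WTCR (-0.55 ± 0.11, SE, adjusted p = 0.041 from limma), and *Creld2*, a protein of the endoplasmic reticulum, was 1.95-fold lower (-0.96 ± 0.40, adjusted p = 0.30). The *Creld2* call ended on leaving out any of the 6 WTCR and WTAL arrays. *Prdm1* and *Xbp1*, the transcription factors of plasma cell fate and of its secretory apparatus, gave -0.05 each in WTCR and were not called. In Dgat1-/-AL livers *Xbp1* gave 0.13 and the *Prdm1* means were equal at 2 decimals (4.53). Which liver cells gave the signals of this list, *Xbp1* included, was not tested, so the medians are not a measure of plasma cells alone. *Slamf7*, an immune cell receptor that was noticed after its values were seen, passed an adjusted p under 0.05 in WTCR (-0.28, adjusted p = 0.043 from limma) at a fold under 1.3, and it gave -0.27 in Dgat1-/-AL.

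Among 12 measured ligands and transport genes of B cells, *Cxcl13*, the chemokine that draws B cells into follicles, was the only one called. Its signal was 6.36, 6.14 and 6.67 in WTCR, 6.84, 6.38 and 6.41 in Dgat1-/-AL, and 6.68, 7.58 and 9.36 in WTAL arrays. WTAL replicate 3 was far above the rest and WTAL replicate 1 lay within the range of Dgat1-/-AL. The change was -1.48 ± 0.56 in WTCR (SE, adjusted p = 0.24 from limma) and -1.33 ± 0.56 in Dgat1-/-AL (adjusted p = 0.97). Without WTAL replicate 3 it was -0.743 in WTCR and -0.591 in Dgat1-/-AL, and over the 9 fits that left out 1 array it reached -2.078 and -1.926. In WTCR it was no longer called once replicate 1 or 2 of WTCR was left out. In Dgat1-/-AL the call ended in 8 of the 9 fits that left out 1 array, all but the one without WTAL replicate 1. *Tnfsf13b*, which encodes BAFF, changed by 0.02 in WTCR and 0.11 in Dgat1-/-AL, and *Pigr*, the carrier of polymeric IgA into bile, by 0.03 and 0.18. Neither was called, and *Tnfsf13* was not analysed here.

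Genes of other cells moved beside these. Of 6 genes shared by leukocytes, WTCR livers had 5 lower and Dgat1-/-AL livers 4, and the mean log2 signal of the list was 6.29 to 6.76 in WTCR, 6.72 to 6.96 in Dgat1-/-AL and 7.18 to 7.49 in WTAL arrays. *Ptprc*, which encodes CD45, changed by -1.28 ± 0.18 in WTCR (SE, adjusted p = 0.013 from limma) and by -0.46 ± 0.18 in Dgat1-/-AL, a call that ended without Dgat1-/-AL replicate 1 or 3 or WTAL replicate 1 or 3. In WTCR *Cd52* changed by -1.11, *Cd48* by -0.75 and *Cd53* by -0.67, and in Dgat1-/-AL *Cd52* by -0.71 and *Cd53* by -0.71. *Laptm5* was called in neither comparison, at -0.16 ± 0.44 in WTCR and 0.11 ± 0.44 in Dgat1-/-AL (SE). Of 12 macrophage and Kupffer cell genes 4 were lower in each comparison, with a mean signal of 8.04 to 8.69 in WTCR, 8.13 to 8.61 in Dgat1-/-AL and 8.36 to 9.03 in WTAL arrays. *Adgre1*, a surface marker of macrophages, changed by -1.13 in WTCR and by -0.85 in Dgat1-/-AL, the largest falls of the 12. The last call ended without Dgat1-/-AL replicate 3, WTAL replicate 3 or the array labelled WTAL replicate 2. The medians of the 12 were -0.33 in WTCR and -0.49 in Dgat1-/-AL. All 12 values were below 0 in WTCR and 10 in Dgat1-/-AL, where *Csf1r* gave 0.31 and *Vsig4* 0.003. The part of leukocytes and macrophages in the B lineage values was not tested.

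T cell genes showed 1 call of 12 in WTCR, *Cd3g*, a chain of the T cell receptor complex (-0.65, adjusted p = 0.15 from limma), and 0 in Dgat1-/-AL. Their mean signal was 5.08 to 5.14 in WTCR, 5.10 to 5.22 in Dgat1-/-AL and 5.20 to 5.27 in WTAL arrays. Of 8 NK cell genes, 7 neutrophil genes, 4 blood cell genes and 4 genes of pancreatic acini, 0 were called in either comparison. Of 5 genes of plasmacytoid dendritic cells, 0 were called in WTCR and *Bst2* was lower in Dgat1-/-AL (-0.47, a call that ended without Dgat1-/-AL replicate 3). Of 7 probe sets of 6 endothelial genes, *Clec4g*, a lectin of sinusoidal endothelium, was lower in WTCR (-1.004, adjusted p = 0.0085 from limma) and in Dgat1-/-AL (-0.56) at 1 of its 2 probe sets, while the other gave 0.001 and 0.015. In Dgat1-/-AL *Lyve1* was lower and *Stab2* and *Cdh5* were higher, the *Cdh5* call ending without Dgat1-/-AL replicate 1 or 2 or WTAL replicate 1. The 7 hepatocyte genes, which check the tissue, had a mean signal of 13.60 to 13.72 in WTCR, 13.55 to 13.73 in Dgat1-/-AL and 13.57 to 13.60 in WTAL arrays, and 0 were called against WTAL.

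**Figure D4:**
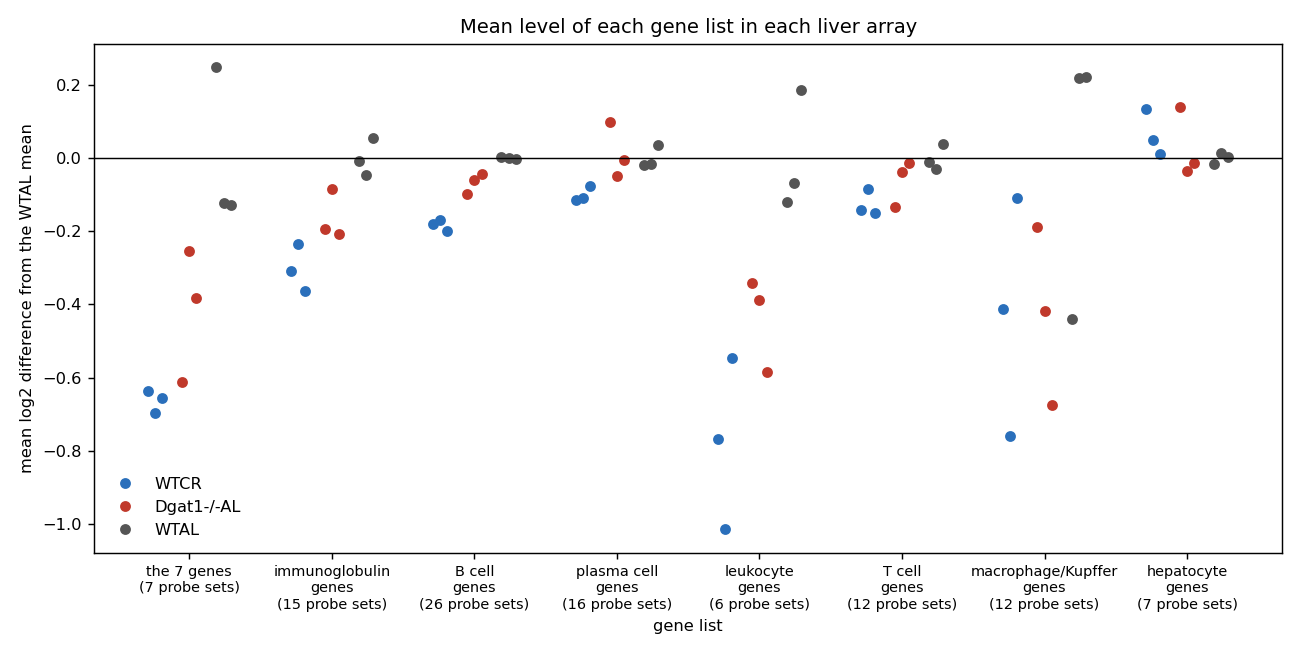
Level of each gene list (x axis, with its number of probe sets) in the 9 arrays, 1 point each, drawn as the log2 signal minus the mean over WTAL arrays and averaged over the list (y axis). For the 7 genes the WTCR arrays lie between -0.70 and -0.64, Dgat1-/-AL replicate 1 at -0.61 and the other Dgat1-/-AL arrays at -0.38 and -0.26. Their WTAL arrays lie at 0.25, -0.12 and -0.13. *Jchain* adds the most to this mean, with -2.625 to -2.118 in WTCR arrays and -2.304 in Dgat1-/-AL replicate 1. The hepatocyte genes lie between -0.03 and 0.14 in all 9.

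The array labelled WTAL replicate 2 goes against its label, since its *Dgat1* signal was 5.67, within the 5.39 to 6.14 of the Dgat1-/-AL arrays, against 7.86 and 8.05 in the other WTAL arrays. Without it *Jchain* changed by -2.66 in WTCR and -1.85 in Dgat1-/-AL, *Cd79b* by -0.43 and -0.25, *Ms4a1* by -1.17 and -0.61, and *Cd79a* by -0.49 and -0.19. The 4 calls in WTCR and the 1 in Dgat1-/-AL were the same with and without it. The array was low among the WTAL arrays for *Jchain* and *Ms4a1* and the highest of all 9 for *Cd79b*. Which liver it holds was not tested. Values from 3 mice per group limit the precision throughout.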

How the data were processed

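Total RNA of 9 livers was extracted with Trizol and hybridised to Affymetrix Mouse Gene 1.0 ST arrays. The authors deposited log2 values made with RMA, which corrects background, quantile-normalizes the arrays and summarizes each probe set. No detection call was used here. Of 28815 probe sets, 21780 carried 1 gene symbol, 1605 several and 5430 none, and 21689 of those with 1 were found in RefSeq by gene ID. limma 3.58.1 (R 4.3.3) estimated group means and a shared spread per probe set from all 9 arrays, with Benjamini-Hochberg adjustment over all probe sets. A call needed a change of over 1.3-fold with a p under 0.05 before adjustment, as in the study. The steps were tested on simulated data.

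The 7 genes and the gene lists were chosen with earlier results of these data known. Beyond the 7, the genes named were up to 4 called genes of largest change per list, the 6 most like the mean of the 7, and *Ighm*, *Prdm1*, *Xbp1*, *Tnfsf13b*, *Tnfsf13*, *Cxcl13*, *Pigr*, *Ptprc* and *Dgat1*. A further gene of that rule is not reported here. Where a list had no call, its brightest gene was to be named: *Prf1* (NK cells, log2 fold change -0.04 in WTCR and 0.02 in Dgat1-/-AL), *S100a9* (neutrophils, -0.07 and -0.22), *Alas2* (blood cells, -0.02 and -0.06), *Cela1* (pancreatic acini, -0.11 and -0.01) and *Alb* (hepatocytes, 0.02 and -0.02). A search of protein sequences was not run.

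Same-numbered arrays of WTCR and Dgat1-/-AL deviated together from their group means (r = 0.477, 0.252 and 0.211 over all probe sets). This met the rule set beforehand for a pairing of these 2 groups, though the labels give none. The values given here nevertheless come from a fit without pairing, except where a block is named. Replicates 2 and 3 were hardly told apart, since WTCR replicate 2 with Dgat1-/-AL replicate 3 gave 0.176 and WTCR replicate 3 with Dgat1-/-AL replicate 2 gave 0.184, while the other differently numbered pairs gave -0.371 to -0.269. The r values were -0.233 to 0.0454 for WTCR and WTAL and -0.325 to -0.0857 for Dgat1-/-AL and WTAL, which were not paired. Alternatives covered the fit, filter, weights, block, test, thresholds and leaving out arrays. The labels do not say whether RNA or arrays were handled in batches.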

Additional observations from a re-analysis of the deposited data

Results flagged for a closer look

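Among the B lineage lists, 5 genes differed between WTCR and Dgat1-/-AL livers when these were tested directly, in the fit without pairing. These calls were 5 of the 56 probe sets of the lists other than the 7 genes, with 0 called higher. By the same rule and in the same comparison, 1131 of all 28815 probe sets (3.93%) were called lower and 1344 higher. Whether the lists held more calls than other probe sets was not tested. *Bank1*, an adaptor of B cell receptor signalling, was lower in WTCR by a log2 fold change of -0.75 (adjusted p = 0.040 from limma) in 3 of 3 arrays. *Sdc1*, or syndecan-1, was lower by -0.55 (adjusted p = 0.042), with all 3 WTCR arrays (9.82 to 10.18) below all 3 Dgat1-/-AL arrays (10.41 to 10.60). Both calls held in all 9 fits that left out 1 array. *Blnk*, a linker of the same receptor pathway, was lower by -0.43, a call that ended without Dgat1-/-AL replicate 3, and *Creld2* by -1.25. A kappa chain variable segment, other than the one called in Dgat1-/-AL above, was lower by -0.85 at 1 of its 2 probe sets, with -0.06 at the other. Against WTAL the called probe set gave 0.45 in Dgat1-/-AL and -0.40 in WTCR, neither of them called. *Blnk*, *Creld2* and this segment did not pass an adjusted p under 0.05 in limma (0.085 to 0.15). *Creld2* read 9.37 in Dgat1-/-AL replicate 1 and 7.59 and 7.84 in the other Dgat1-/-AL arrays, and its difference ranged from -1.59 to -0.69 over the fits that left out 1 array.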

How the results depend on the processing

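The 4 genes lower in WTCR stayed at 3 to 4 when 1 array was left out, and the 1 lower in Dgat1-/-AL stayed at 1. With the replicate number as a block over all 9 arrays the counts were 4 in WTCR, 1 in Dgat1-/-AL and 0 between them, and 7 and 3 lower over the other B lineage lists, as without the block. It moved the probe sets with several immunoglobulin symbols that were lower in WTCR to 12, against 11 without it, and in Dgat1-/-AL it called 1 probe set of the other B lineage lists higher, against 0 without it. In WTCR the count was 2 at an adjusted p under 0.05. It was 3 with the methods' t-test and 0 with that test after Benjamini-Hochberg. Among probe sets with a mean above the median it was 1, a filter that kept 1 of the 7. In Dgat1-/-AL it was 0 with that filter, 0 with the methods' t-test before and after adjustment, 0 at an adjusted p under 0.05 and 3 with no fold threshold. Between WTCR and Dgat1-/-AL it was 1 with these 2 groups alone in the fit, 2 with array quality weights, 2 with the block and these 2 groups alone, and 0 to 3 when 1 array was left out. It was 3 without both Dgat1-/-AL replicate 1 and the array labelled WTAL replicate 2, a setting chosen, like the block with 2 groups, after seeing the data.

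Of the 56 probe sets of the other B lineage lists, 7 were lower in WTCR, against 2 with the filter, 0 with the adjusted t-test, 16 with no fold threshold, 3 at an adjusted p under 0.05, 11 without both arrays and 7 to 9 without 1 array. In Dgat1-/-AL 3 were lower, against 0 with the filter, with the t-test before and after adjustment, at an adjusted p under 0.05 and without both arrays, and 1 to 3 without 1 array, with 1 without Dgat1-/-AL replicate 3. The cause of these shifts was not tested beyond what the thresholds and filters remove by construction.

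For single genes, 393 of 430 alternative values kept their direction and side of the threshold, 12 lost the call, 16 gained it and 9 changed sign. The sign changes were those of *Tnfrsf17*, at -0.116 to 0.039 in WTCR, -0.126 to 0.030 in Dgat1-/-AL and -0.043 to 0.062 between them without 1 array, with 0.039 in WTCR and 0.025 in Dgat1-/-AL without both arrays, and of *Mzb1* between them, at -0.042 to 0.094 without 1 array and -0.042 without both. The arrays hold signals with no detection call, so how far low signals lie above background is unknown.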
